A study of Mus musculus with 12 samples.

Results

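The Jun family is made up of Jun, Junb and Jund, which were found by symbol among the 21967 genes of a CPM table and gave 3 members, all above the filter on low values. CPM, the deposited unit, scales each library to a total of 1000000 reads. The members were chosen by symbol with measured values in view, namely their rise after stimulation and a response of Jun that differed between genotypes. Both treatment comparisons, the genotype comparison after treatment and the interaction are therefore given for the members as a description, without p-values.

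Organotypic brain slices of mouse pups aged 6 days were cultured for 8 days. All slices carried a pair of floxed Mef2c alleles (Mef2c fl/fl), which also holds for those used as controls. The 4 groups of 3 libraries were CaMKiiα Cre +/-; Mef2c fl/fl slices given picrotoxin with 4-aminopyridine (100 μM of each), slices of that genotype given vehicle (1% DMSO and 1% water), Mef2c fl/fl slices without Cre given both drugs, and Mef2c fl/fl slices without Cre given vehicle. 4-aminopyridine closes a set of potassium channels, picrotoxin removes fast GABA inhibition, and neurons given both fire in synchrony. The CaMKiiα promoter is active in excitatory neurons of the forebrain, at which the deletion is aimed. Which cells of the slice lost or kept Mef2c was not measured here. Whether replicates stem from different pups is not in the labels, and p-values therefore cover only the spread among libraries, which may be technical.

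Jun proteins are subunits of AP-1, a transcription factor formed by a pair of basic leucine zipper proteins. They dimerise with each other or with Fos and ATF proteins and bind short elements such as TGACTCA. In neurons the Jun and Junb genes are immediate early genes, while Jund is known for a high level at rest. The N-terminal region of Jun is phosphorylated by Jun N-terminal kinases (JNK), which are linked to neuronal stress, axon injury and cell death.

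The promoters are shown because a MEF2 site and AP-1 type sites are known in the Jun promoter. The sequences are the 250 bases before the RefSeq start on GRCm38.p6, the assembly behind mm10, written from 5′ to 3′ on the strand of the gene. Capitals mark every match to a searched motif on either strand. The motifs were TGACTCA, TGACGTCA, the Jun promoter elements TGACATCA and TTACCTCA, the MEF2 consensus and the CArG box of serum response factor.
Jun, chr4:95052223-95052472, minus strand: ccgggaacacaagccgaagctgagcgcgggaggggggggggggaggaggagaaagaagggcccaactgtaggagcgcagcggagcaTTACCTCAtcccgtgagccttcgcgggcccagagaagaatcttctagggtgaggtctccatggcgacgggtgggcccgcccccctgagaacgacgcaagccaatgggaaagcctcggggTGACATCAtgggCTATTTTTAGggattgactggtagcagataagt
Junb, chr8:84978749-84978998, minus strand: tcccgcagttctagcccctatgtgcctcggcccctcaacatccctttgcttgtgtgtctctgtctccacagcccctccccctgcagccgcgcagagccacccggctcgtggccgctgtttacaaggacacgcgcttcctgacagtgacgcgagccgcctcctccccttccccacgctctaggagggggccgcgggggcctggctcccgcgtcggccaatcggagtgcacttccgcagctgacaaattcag

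The Jun window held TTACCTCA at 164 to 157 bases before the start, TGACATCA at 45 to 38 bases and a match to the MEF2 consensus, CTATTTTTAG, at 33 to 24 bases, which reads as a match on both strands. No match overlapped another motif. Of 32851 RefSeq windows of 250 bases, 0.728% held TTACCTCA, 2.93% held TGACATCA and 2.92% held the MEF2 consensus. No searched motif was in the Junb window or in the RefSeq window of Jund. TGACATCA, TTACCTCA and the MEF2 consensus were searched because such sites are known in the Jun promoter. Their matches in Jun alone are therefore no contrast between the genes. TGACTCA was in 4.46% of all windows, TGACGTCA in 1.55% and the CArG box in 1.47%, and none of these was in a member's window. The RefSeq start of Jund lies 1210 bases from the start of its GENCODE M21 transcript, and that of Junb 30 bases, so that these windows may miss the start in use. A match is a description of letters and shows no binding.

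All 3 coding transcripts have a single exon in GENCODE M21 on GRCm38. Jun (ENSMUSG00000052684.4) lies on chromosome 4 from 95049034 to 95052222 on the minus strand and codes for 334 amino acids. Junb (ENSMUSG00000052837.6) lies on chromosome 8 from 84974484 to 84978718 on the minus strand, where its coding exon runs from 84976910 to 84978718 and codes for 344 amino acids. Jund (ENSMUSG00000071076.6) lies on chromosome 8 from 70698949 to 70700616 on the plus strand and codes for 341 amino acids. Antisense genes overlap Jun (Junos, over 689 bases) and Jund (Gm11175, over 919 bases). The strand setting of the counting is not given in the sources used here, so reads of these pairs cannot be told apart. The antisense genes were not analysed here. Prdx2, a peroxiredoxin gene, overlaps Junb over 351 bases outside the coding exon. It averaged 205.1 CPM in Cre treated slices, 195.3 CPM in Cre vehicle slices, 199.6 CPM in treated slices without Cre and 195.0 CPM in vehicle slices without Cre, and did not pass in any comparison (limma adjusted p of 0.488 to 0.989).

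The libraries held 82235674 to 140390406 counted reads, and the members' values rest on 3732 to 118325 reads each. Mef2c, the floxed gene, was higher in the libraries labelled Cre, at 1944 to 2304 CPM in Cre treated slices against 974 to 1225 CPM in treated slices without Cre, and at 2143 to 2449 CPM in Cre vehicle slices against 883 to 1129 CPM in vehicle slices without Cre. This goes against the label of a deletion. Exon counts were not analysed here, so a loss of the floxed exon was not tested, and every genotype direction below follows the labels as deposited. Of 33 markers of excitatory neurons, inhibitory neurons, astrocytes, the oligodendrocyte lineage, microglia and endothelial cells, 32 reached a mean of 1 CPM. The exception was the myelin gene Mog, at a group mean of 0.0203 to 0.083 CPM. Excitatory neuron markers summed to 7122 to 9140 CPM over all libraries, within which the range of each group overlapped those of the other groups.

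Jun, the founding member and the one best known as a JNK substrate, rose after the drugs in both genotypes, and far less in slices labelled Cre. Its levels were 227, 159 and 152 CPM in Cre treated slices against 66.8, 65.1 and 54.7 CPM in Cre vehicle slices. Without Cre they were 514.5, 399.7 and 393 CPM in treated slices against 47.2, 53.0 and 48.2 CPM in vehicle slices. No treated library overlapped a vehicle library of its genotype, and replicate 1 was the highest of both treated groups. The means were 179.5 ± 41.7 CPM in Cre treated and 62.2 ± 6.55 CPM in Cre vehicle slices (SD, n = 3 each), a ratio of 2.89. They were 435.9 ± 68.2 CPM in treated and 49.5 ± 3.11 CPM in vehicle slices without Cre (SD, n = 3 each), a ratio of 8.81. On the scale of log2(CPM + 1) the differences were 1.5 (SE 0.15) with Cre and 3.10 (SE 0.15) without.

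Junb, which forms AP-1 dimers that often counteract those of Jun, had the largest rise of the family in both genotypes. It stood at 601, 605 and 575 CPM in Cre treated slices against 39.2, 42.9 and 39.6 CPM in Cre vehicle slices. Without Cre it stood at 919, 919 and 937 CPM in treated slices against 45.4, 65.7 and 58.3 CPM in vehicle slices. The treated groups were tight, with a coefficient of variation of 2.72% with Cre and 1.16% without, where that of Jun was 23.2% and 15.6%. The ratio of means was 14.6 with Cre and 16.4 without. The log2 differences were 3.84 (SE 0.10) and 4.03 (SE 0.10), ranks 12 and 13 from the top of the 13048 genes tested.

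Jund, the member with the highest level at rest, rose the least. It stood at 327, 415 and 346 CPM in Cre treated slices against 162, 172 and 152 CPM in Cre vehicle slices. Without Cre it stood at 467, 448 and 529 CPM in treated slices against 204, 190 and 185 CPM in vehicle slices. Treated and vehicle libraries did not overlap in either genotype. The ratio of means was 2.24 with Cre and 2.49 without, and the log2 differences were 1.15 (SE 0.09) and 1.31 (SE 0.09). Jund was still at rank 125 of all tested genes with Cre and at rank 106 without. All 3 members were thus higher in every treated library of both genotypes. Over all tested genes, treated libraries lay wholly above vehicle libraries for 9.28% with Cre and for 9.18% without, and since the choice of members used these comparisons nothing is read from the count. Microglial markers summed to 100.05 to 120.8 CPM in Cre treated slices against 126.7 to 163.5 CPM in Cre vehicle slices, and to 115 to 135.02 CPM in treated slices against 163.3 to 197 CPM in vehicle slices without Cre. Astrocyte markers summed to 11504 to 11739 CPM in treated slices without Cre against 12740 to 14593 CPM in vehicle slices without Cre, while with Cre the sums overlapped. The part of these markers in the members' values was not tested.

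**Figure D1:**
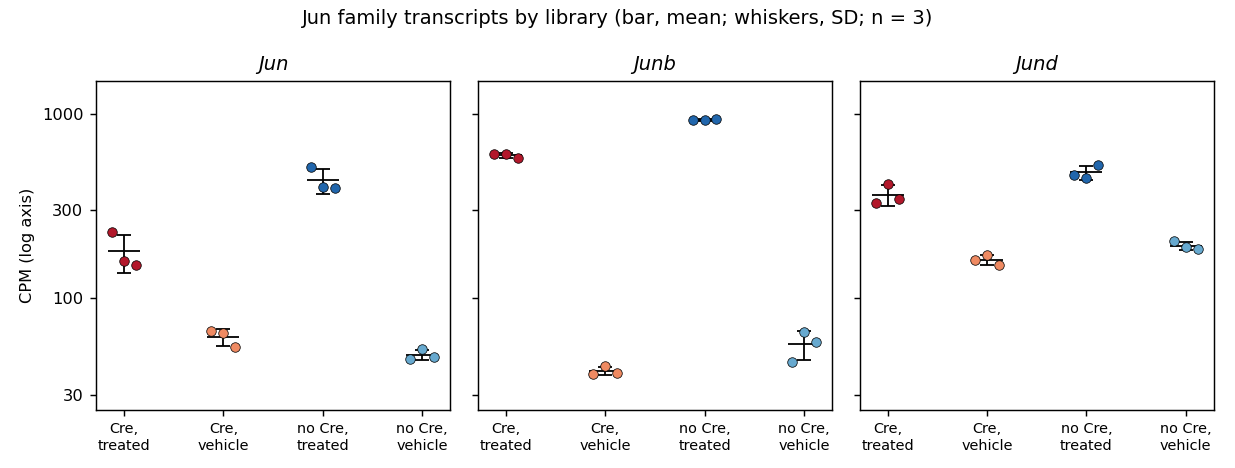
CPM of Jun, Junb and Jund in each library on a log axis, by group (points, libraries; bar and whiskers, mean and SD, n = 3). The 3 treated libraries with Cre lie below the 3 without Cre for every member, at 152 to 227 CPM against 393 to 514.5 CPM for Jun.

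The make-up of the family was compared per exon length, as CPM per kb of the GENCODE coding transcript, since the genes differ in length. After treatment Junb made up most of the summed level and at rest Jund did. In Cre treated slices Junb took 54.6 ± 1.51%, Jund 36.1 ± 3.32% and Jun 9.37 ± 2.21% of the sum (SD, n = 3). In Cre vehicle slices Jund took 69.8 ± 0.319%, Junb 16.2 ± 0.662% and Jun 14.0 ± 0.918% (SD, n = 3). In treated slices without Cre Junb took 54.6 ± 1.5%, Jund 30.8 ± 1.99% and Jun 14.6 ± 2.15% (SD, n = 3). In vehicle slices without Cre Jund took 71.2 ± 3.69%, Junb 19.2 ± 3.30% and Jun 9.55 ± 0.407% (SD, n = 3). The share of Jun was thus lower in treated than in vehicle slices with Cre and higher in treated than in vehicle slices without Cre, with no overlap in either pair. With RefSeq gene lengths, which make Jund 2878 bases long in place of 1668, the mean share of Jund was 24.9% in Cre treated, 57.5% in Cre vehicle, 20.7% in treated slices without Cre and 59.3% in vehicle slices without Cre, and the order after treatment and at rest stayed as given for the leading gene. The summed level was 602 ± 29.9 CPM per kb in Cre treated and 139 ± 8.67 CPM per kb in Cre vehicle slices (SD, n = 3 each). It was 936 ± 30.3 CPM per kb in treated and 162 ± 4.52 CPM per kb in vehicle slices without Cre (SD, n = 3 each).

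**Figure D2:**
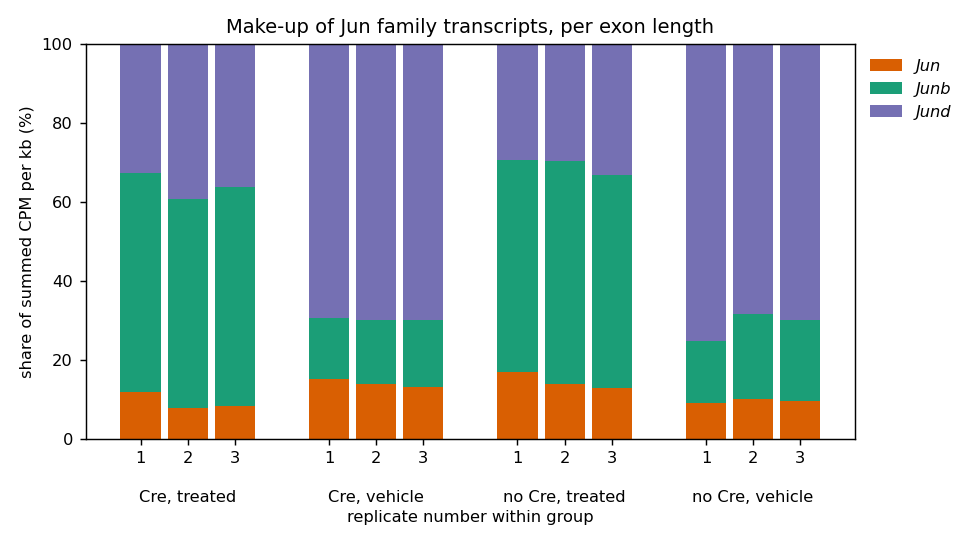
Share of each member in the summed CPM per kb of exon, by library (bars, replicates 1 to 3 of each group; y axis in percent). Jund fills 68.3% to 75.4% of every vehicle bar and Junb 52.8% to 56.3% of every treated bar.

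At rest Junb was lower with Cre, and neither Jun nor Jund passed the test between genotypes. The test is given for this comparison, whose vehicle libraries also enter the interaction. Junb was at 39.2 to 42.9 CPM in Cre vehicle slices against 45.4 to 65.7 CPM in vehicle slices without Cre, a log2 difference of -0.45 (SE 0.10, limma adjusted p = 0.00988). Jund was at 152 to 172 CPM in Cre vehicle slices against 185 to 204 CPM without Cre, a log2 difference of -0.25 (SE 0.09) that did not pass (limma adjusted p = 0.0721). Jun was at 54.7 to 66.8 CPM in Cre vehicle slices against 47.2 to 53.0 CPM without Cre, a log2 difference of 0.32 (SE 0.15) that did not pass (limma adjusted p = 0.14). The groups of 3 libraries did not overlap for any member, as for 27.8% of all tested genes with Cre libraries higher and 23.4% with Cre libraries lower. In this comparison 19.3% of all tested genes passed, 10.1% as lower with Cre, so that 1 of 3 members is little to set against the background. Without vehicle replicate 2 of the slices without Cre, the library with the most Junb, the log2 difference of Junb was -0.34, and without replicate 1 it was -0.60. That replicate 2 library also stood highest of its group for Fos, at 57.9 CPM against 22.5 and 28.04 CPM, and for Fosb, at 43.6 CPM against 13.7 and 14.2 CPM.

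Sums of markers of other cells differed in this comparison, but not every marker followed its sum. Astrocyte markers summed to 10115 to 11372 CPM in Cre vehicle slices against 12740 to 14593 CPM in vehicle slices without Cre, and microglial markers to 126.7 to 163.54 CPM against 163.35 to 197 CPM, which overlapped slightly. Endothelial markers summed to 44.5 to 55.1 CPM in Cre vehicle slices against 57.99 to 80.0 CPM without Cre, and markers of the oligodendrocyte lineage to 48.04 to 52.8 CPM against 53.04 to 57.9 CPM. Inhibitory neuron markers summed to 541 to 579 CPM in Cre vehicle slices against 432 to 444 CPM without Cre. Of 5 astrocyte markers 2 passed as lower with Cre (background, 10.1%). The ratios of their vehicle means, with Cre over without, ran from 0.693 for Aldh1l1 to 1.04 for Slc1a3. Of 6 inhibitory neuron markers 2 passed as higher with Cre (background, 9.18%), with ratios from 0.627 for Pvalb to 1.80 for Sst. The part of these markers in the values of the Jun family was not tested. In a slice, fewer cells of a type and less RNA per cell cannot be told apart.

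After treatment every member was lower with Cre, and the gap was widest for Jun. Jun in Cre treated slices was at 41.2% of its mean in treated slices without Cre, Junb at 64.2% and Jund at 75.4%. The log2 differences were -1.29 (SE 0.15), -0.64 (SE 0.10) and -0.41 (SE 0.09). No Cre treated library reached the lowest treated library without Cre for any member. Cre treated libraries lay wholly below those without Cre for 12% of all tested genes, and nothing is read from the members' count, since this comparison was in view when they were chosen. Jun had rank 20 from the bottom of the 13048 genes, Junb rank 160 and Jund rank 458. Fos, the partner of Jun in AP-1, was at 66.9% and Fosb at 65.1% of their means without Cre, close to Junb. Astrocyte markers summed to 9307 to 11391 CPM in Cre treated slices against 11504 to 11739 CPM in treated slices without Cre, and their part in these differences was not tested.

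**Figure D3:**
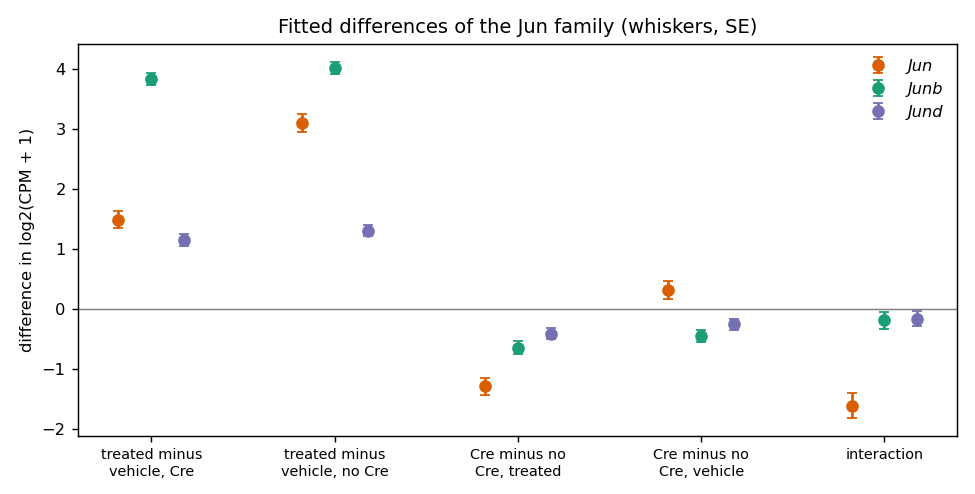
Fitted differences in log2(CPM + 1) of Jun, Junb and Jund in the 5 comparisons (points; whiskers, SE). Jun is the member with a difference of 0.32 between labels in vehicle slices, -1.29 after treatment and an interaction of -1.61, where Junb and Jund lie at -0.19 and -0.16.

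The interaction, the treatment effect with Cre minus that without, was -1.61 (SE 0.21) for Jun on the log2 scale. It shares all its libraries with the comparisons above. It was the lowest value among the 13048 tested genes, of which 0.023% passed in limma as lower. For Junb it was -0.19 (SE 0.14) and for Jund -0.16 (SE 0.13). Within each library the ratio of Jun to Junb, both in CPM, was 0.379, 0.262 and 0.265 in Cre treated slices against 1.70, 1.52 and 1.38 in Cre vehicle slices. In slices without Cre it was 0.56, 0.435 and 0.42 after treatment against 1.04, 0.807 and 0.826 with vehicle. The ratio was highest in Cre vehicle slices and lowest in Cre treated slices, and none of the 4 groups overlapped another.

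Among 20 tested genes of a list of 21 other immediate early transcription factors, 20 rose with Cre and 18 rose without Cre after treatment in limma with Benjamini-Hochberg adjustment, and none fell (background, 3.79% and 3.24% of tested genes higher and 10.3% and 9.34% lower). The remaining gene, Csrnp1, is listed at 0 in every library. The list holds genes known for early induction and was chosen with earlier results of these data known. Nothing is therefore read from the count of rises. The median log2 rise of the 20 was 3.36 with Cre and 3.71 without, where all tested genes had medians of -0.03 and -0.06. With Cre, Jun at 1.5 lay well below that median, and without Cre, at 3.10, it lay nearer to it. Their interaction values had a median of -0.07 and ran from -0.88 for the orphan nuclear receptor gene Nr4a2 to 0.80 for the zinc-finger gene Egr2. None of the 20 passed the interaction test, and Jun lay below the lowest of them. After treatment 7 of them were lower and 1 was higher with Cre than without (background, 5.95% lower and 7.5% higher). The lower ones included Klf4 (-1.13, limma adjusted p = 0.000253), Btg2, an antiproliferative factor (-0.93, limma adjusted p = 0.000647), and the small MAF gene Maff (-0.63, limma adjusted p = 0.00494). The higher one was Ier5 at 0.81 (limma adjusted p = 0.00195), which differed by as much in vehicle slices. With vehicle, 4 of the 20 were lower and 2 were higher with Cre than without (background, 10.1% lower and 9.18% higher).

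**Figure D4:**
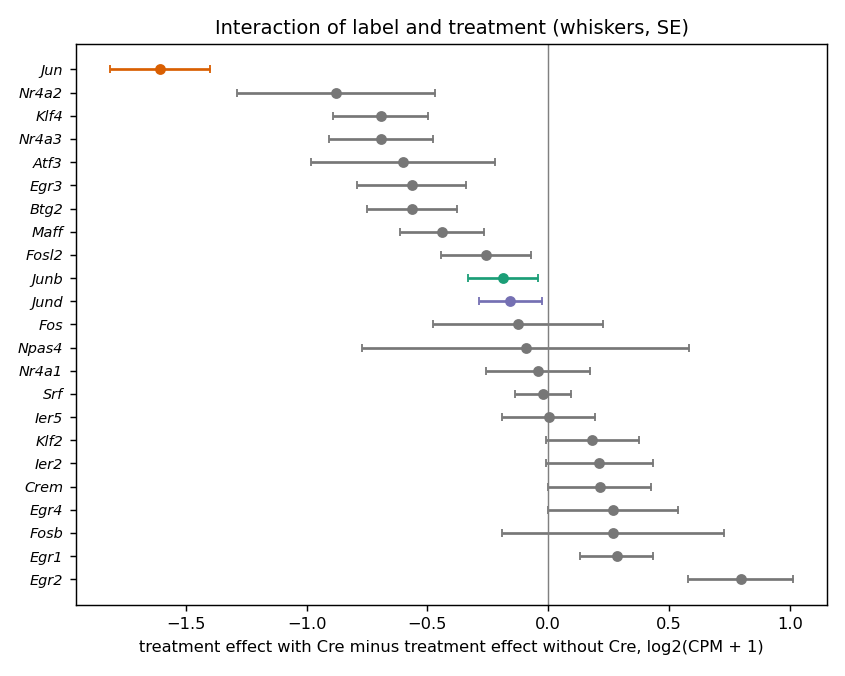
Treatment effect with Cre minus treatment effect without Cre in log2(CPM + 1), for the Jun family (coloured) and 20 other immediate early transcription factor genes (points; whiskers, SE). Jun lies at -1.61, and the other genes lie between -0.88 and 0.80.

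The partners of Jun in AP-1 were taken as lists by family. These were chosen with earlier results of these data known, so their counts are a description. All 4 Fos genes rose in both genotypes (background, 3.79% of tested genes higher with Cre and 3.24% without), with log2 changes with Cre of 6.66 for Fosb, 5.43 for Fos, 3.48 for Fosl2 and 2.50 for Fosl1 and without Cre of 6.39, 5.55, 3.74 and 2.27. None passed between the genotypes, with differences of -0.62 to 0.12 after treatment. The treated libraries of Fos and Fosb were still wholly lower with Cre, as for 12% of all tested genes. Fos was at 990 to 1189 CPM in Cre treated slices against 1552 to 1643 CPM in treated slices without Cre. Fosb was at 1132 to 1213 CPM against 1674 to 1901 CPM, while the treated groups of Fosl1 and Fosl2 overlapped. Of 8 ATF, JDP and BATF genes 5 were tested and 3 rose in each genotype, against the same background. Atf3, a stress-induced partner of Jun, rose by 1.94 with Cre and 2.54 without. Atf4, the effector of the integrated stress response, rose by 1.20 and 1.17, and Jdp2, a repressor of AP-1, by 0.98 in both. Atf2 and Atf7 did not pass, at -0.05 to 0.12, and Batf, Batf2 and Batf3 had means below 1 CPM. After treatment Atf3 was lower with Cre (-1.02, limma adjusted p = 0.0249), while its interaction of -0.60 did not pass. Among small MAF genes, which code for further leucine zipper partners, Maff rose by 2.74 with Cre and 3.18 without and Mafk by 1.61 and 1.44. Mafg was at 0.03 with Cre and 0.05 without and did not pass.

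In the JNK cascade, 18 genes of which 17 were tested, 2 fell and none rose after treatment in each genotype. Over all tested genes 10.3% fell with Cre and 9.34% without, so the count of 2 is near the background. The median log2 change of the 17 was -0.04 with Cre and -0.05 without, where all tested genes had -0.03 and -0.06. The mixed-lineage kinase gene Map3k11 fell by 0.38 with Cre and by 0.43 without. Map3k12, a sensor kinase of axon injury, fell by 0.22 with Cre, and Map3k4 fell by 0.27 without Cre. With median-ratio scaling 1 gene rose and 1 fell with Cre, and 2 rose and 2 fell without. The median of all tested genes moved by less than 0.1 under that scaling. Between genotypes in vehicle slices 4 of the 17 genes were higher and 1 lower with Cre (background, 9.18% higher and 10.1% lower). Mapk8 and Mapk10, which code for JNK1 and JNK3, were higher by 0.38 each (limma adjusted p = 0.00621 and 0.00227) and Map3k9 by 0.43 (limma adjusted p = 0.00526), while Map3k5, which codes for the stress kinase ASK1, was lower by 0.55 on the log2 scale (limma adjusted p = 0.00101). Mapk9, which codes for JNK2, was at 0.20 and did not pass.

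Of 4 phosphatase genes that act on JNK, 1 rose with Cre and 2 rose without, and 1 fell in each genotype (background, 3.79% and 3.24% higher and 10.3% and 9.34% lower). Dusp1 rose by 4.10 with Cre and 4.42 without. Dusp16 rose by 0.35 without Cre and was at 0.21 with Cre, where it did not pass. Dusp10 did not pass in either genotype, at 0.19 and 0.07. Dusp8 fell by 0.22 with Cre and by 0.23 without, calls that were lost with median-ratio scaling. Dusp1 was lower with Cre both after treatment (-0.79, limma adjusted p = 0.00354) and in vehicle slices (-0.47, limma adjusted p = 0.0426).

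Among 8 genes for the turnover and cofactors of Jun proteins, 1 rose in each genotype and 1 fell with Cre, which is close to the same background. Fbxw7, the substrate receptor of a ubiquitin ligase that takes up phosphorylated Jun, rose by 0.42 with Cre and 0.56 without. Det1, which links Jun to the Cop1 ligase, fell by 0.38 with Cre and was at -0.26 without Cre, where it did not pass. Cop1 (listed under its older symbol Rfwd2), Itch, Ndfip1, Smurf1, Men1, which codes for the Jund partner menin, and Cops5 did not pass in either treatment comparison, at -0.24 to 0.15. Smurf1 was higher with Cre in vehicle slices by 0.38 (limma adjusted p = 0.0163). Of 10 genes for factors known to bind promoters of the family, 1 rose and 2 fell after treatment in each genotype (background, 3.79% higher and 10.3% lower with Cre, 3.24% and 9.34% without). The riser was Srf, serum response factor, at 1.32 with Cre and 1.34 without. Creb1 fell by 0.68 with Cre and by 0.55 without, and Elk1, a partner of serum response factor, by 0.42 and 0.52. Between genotypes after treatment 3 of the 10 were higher with Cre (background, 7.5%), namely Mef2c at 1.00, Mef2a at 0.40 and Mef2d at 0.40.

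Of 21 genes known as targets of AP-1, 14 were tested, of which 2 rose with Cre and none passed without Cre in limma with Benjamini-Hochberg adjustment. Over all tested genes 3.79% rose and 10.3% fell with Cre, and 3.24% rose and 9.34% fell without. In each genotype 3 of the 14 had an unadjusted limma p below 0.05, a count that gives no direction. The median log2 change of the 14 was 0.22 with Cre (-0.05 to 0.58) and -0.01 without (-0.29 to 0.28). All tested genes had medians of -0.03 and -0.06. Interaction values of the 14 had a median of 0.26, beside 0.02 for all tested genes, and none passed. The list as a whole was not tested. The 2 that rose with Cre were Plaur, the urokinase receptor gene, at 0.40 (limma adjusted p = 0.027) and Bcl2l11, which codes for the pro-apoptotic protein BIM, at 0.35 (limma adjusted p = 0.0454). In slices without Cre they were at 0.26 and 0.23. Plaur lay near the filter, at a mean of 2.02 CPM in Cre treated and 1.29 CPM in Cre vehicle slices. Between genotypes in vehicle slices Hrk, a pro-apoptotic gene that Jun is known to raise in neurons, was higher by 1.20 with Cre (limma adjusted p = 3.36e-06), while Cd44 was lower by 0.76 and Vim, which is also an astrocyte gene, by 0.60 on the log2 scale (background, 9.18% higher and 10.1% lower). The sum of astrocyte markers given above was lower with Cre as well. Hrk differed by 1.08 after treatment and did not pass between treated and vehicle slices, at -0.05 with Cre and 0.07 without.

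The genes with the pattern nearest to that of Jun were sought by the root mean square difference in log2(CPM + 1) over the 12 libraries, after each gene was centred on its own mean, among 12994 genes. They were Nfkbid, which codes for a nuclear inhibitor of NF-κB, at 0.32, Tnfaip6, which codes for a hyaluronan-binding protein, at 0.33, Fbxo33, an F-box gene, at 0.33, Atf3 at 0.35 and the co-chaperone gene Dnajb1 at 0.35. Jund came at rank 62 and Junb at rank 163. The added 1 in log2(CPM + 1) shrinks the changes of low genes. For Nfkbid the ratio of treated to vehicle means was 9.62 with Cre and 16.5 without, from gains of only 3.21 and 5.73 CPM. For Tnfaip6 it was 6.80 and 9.30, beside 2.89 and 8.81 for Jun, so nearness here is not likeness in fold change. Atf3 and Tnfaip6 shared with Jun that replicate 1 was the highest of both treated groups. Atf3 was at 22.3, 14.8 and 12.2 CPM in Cre treated slices and at 56.8, 26.9 and 24.3 CPM in stimulated slices lacking Cre. Tnfaip6 was at 14.6, 13.8 and 12.6 CPM in Cre treated slices and at 31.97, 18.9 and 22.2 CPM in stimulated slices lacking Cre. The interaction values of the 5 genes ran from -0.65 to -0.48, beside -1.61 for Jun.

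The genes nearest to Junb lay closer. They were RP23-375N21.2, a row named after a clone, at 0.20, Dusp1 at 0.22, Pim1, a serine/threonine kinase gene, at 0.23, Arl4d, a small GTPase gene, at 0.28, and the orphan nuclear receptor gene Nr4a3 at 0.28. Jun came at rank 43 in that order and Fos at rank 34. Dusp1 was at 142.9, 107.5 and 110.5 CPM in Cre treated slices against 6.63, 6.13 and 5.38 CPM in Cre vehicle slices, while slices without Cre had 216, 208 and 198 CPM when treated against 7.45, 11.5 and 7.62 CPM with vehicle. Of these 5 genes Arl4d had the lowest interaction, at -1.03. Pim1 had the highest, at 0.41, with 104.5 CPM in Cre treated slices and 106 CPM in treated slices without Cre.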

How the data were processed

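Polyadenylated RNA was sequenced as paired reads of 150 bp in 12 libraries. The authors deposited CPM for 21967 gene symbols, each column summing to 1000000. Per the submitters' processing notes FastQC, Trimmomatic, STAR, DESeq2 and mm10 were used. No version, counter, annotation or strand setting is named there. The columns are named WT and KO, taken as libraries without and with Cre. Every value (100%) was a whole multiple of its column's smallest step within 0.001 of a read, which gave the reads used for totals and for count-based alternatives. No replicate pair was a copy (12 pairs, chi-squared over its degrees of freedom 26.4 to 182).

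The 13048 genes averaging 1 CPM or more were tested on log2(CPM + 1), which understates changes of low genes, with a means model over 4 groups in limma 3.58.1 (R 4.3.3, trend and robust moderation), two-sided, with Benjamini-Hochberg adjustment over all tested genes and a threshold of 0.05. The fit was tested on simulated data. The members and gene lists were chosen with earlier results of these data known. Named genes were the members, Mef2c, overlapping genes, all members of lists of up to 8 genes (except in the MAF list, which is given in part, since an item of it is not reported here), up to 4 passing genes with the smallest p of longer lists, and the 5 nearest patterns for Jun and Junb. The extremes of a list, genes given to complete a comparison (such as Mapk9 and genes of a list named at their smallest p in one comparison and given in another) and Csrnp1 were named after their values were seen. Alternatives were a fit to the compared libraries alone, median-ratio scaling, a block for the replicate number, a pseudocount of 0.1 or 5, a 5 CPM filter or none, plain moderation, edgeR 4.0.16 with TMM or DESeq2 size factors, DESeq2 1.42.0, and leaving out each library. A block within genotype was added after the data were seen.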

Additional observations from a re-analysis of the deposited data

Results flagged for a closer look

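Jun was singled out because its fitted treatment effect differed between genotypes, with an interaction of -1.61 on the log2 scale. All 6 treated libraries were higher than the vehicle libraries of their genotype, by less with Cre. The members were chosen with this difference known, so it is given as a value without a p. The same value of -1.61 stands for a second pattern: all 3 Cre libraries lay below those without Cre after treatment, and all 3 lay above them in vehicle slices.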

How the results depend on the processing

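No log2 difference of Jun, Junb or Jund changed sign in 23 or 24 alternatives per comparison. Several kinds of alternative leave a difference of group means unchanged by design, so its sign was fixed there. These were other filters, plain moderation, the blocks, the compared libraries alone, and leaving out a library outside the comparison. Other scaling, pseudocounts, count-based fits and leaving out a compared library could change it. Junb in Cre slices, treated minus vehicle, was 3.84 and became 3.72 with a pseudocount of 5, 3.92 in edgeR with TMM, 3.91 in edgeR with DESeq2 size factors and 3.91 in DESeq2. Between genotypes in vehicle slices, a fit to the compared libraries alone brought Jun (0.32, limma adjusted p = 0.0079) and Jund (-0.25, limma adjusted p = 0.00613) past the threshold. Leaving out 1 library gave 0.27 to 0.41 for Jun and -0.30 to -0.21 for Jund, which passed without Cre treated replicate 1 (both, limma adjusted p = 0.0427 and 0.0456) or 2 (Jund, 0.0288), libraries outside the comparison whose loss changes the shared estimate of spread. Junb kept its call there in all 23 alternatives (highest limma adjusted p = 0.0436). Its interaction of -0.19 ran from -0.30 to -0.041 with 1 library left out, the highest being without vehicle replicate 1 of the slices without Cre. That of Jun ran from -1.79 to -1.48.

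The number of genes passing the interaction was 3, became 0 without any 1 of 8 libraries, 6 without treated replicate 3 without Cre, 2 with no filter, and 42 in DESeq2. Between genotypes in vehicle slices 2518 genes passed, 4979 with the compared libraries alone, and 1174, 1291, 1358 and 1400 without 1 of 4 vehicle libraries. After treatment 1755 passed, 614 with the compared libraries alone and 1150 to 2687 with 1 library left out. Treatment calls without Cre were 1642, and 1046 without vehicle replicate 1. Higher genes made up 27.0% of treatment calls with Cre and 25.8% without, but 38.7% and 47.7% with median-ratio scaling. Deviations of same-numbered libraries correlated at 0.056 to 0.476 within genotypes, above 0.1 in 4 of 6 pairs, and 8 of 12 libraries were nearest to their own number. Between genotypes the correlations of same-numbered libraries ran from -0.384 to 0.359. Pairs within genotypes are thus neither established nor excluded, and the main fit has no block for them. A block cannot change a fitted difference in this balanced design, so the interaction of Jun was -1.61 with either block, which is no check of its size. A block can change only the spread and the calls. The interaction was passed by 4 genes with the replicate block and by 0 with the block within genotype. Counting error is small at these depths, and 3 libraries a group limit the precision.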
